A study of Apis mellifera with 27 samples.

Results

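The foraging gene For encodes a cGMP-dependent protein kinase and lies on linkage group 13 of the honey bee (Apis mellifera) assembly Amel_HAv3.1, at 10107902 to 10187775. It was the 1 gene of that symbol, letter case ignored, among 12398 genes of the RefSeq table, of which 12255 lie on placed chromosomes. Its span of 79.874 kb was longer than that of all but 515 of the placed genes, whose median was 3621 bp. The data were lists of peaks from chromatin immunoprecipitation and sequencing (ChIP-seq) of 4 histone modifications in central brain of newly emerged queens, workers and drones, here called castes. Every combination of caste and mark had 2 libraries, from biological replicate pools of brains, which gave 24 lists. Whether libraries of different marks came from the same pool is not stated. The 3 inputs, 1 per caste, were not analysed here. All bees had 1 mother queen and were taken within an hour of emergence. The optic lobes had been cut from every brain, and the hypopharyngeal glands from those of workers. No treatment or mutation is named for any group, and sex and caste cannot be told apart in a comparison of drones with the female castes. Of 438413 peaks in the 24 lists, 328 overlapped the window studied here, which was the gene with 20 kb on each side (119.874 kb, from 10087902 to 10207775).

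cGMP-dependent protein kinases are switched on by the second messenger cGMP, which guanylate cyclases make, in the soluble form in answer to nitric oxide, and they pass the signal on by phosphorylating other proteins. In Drosophila the foraging gene is known for natural variants whose larvae and adults differ in how far they move while feeding, and in the honey bee it is known for its link to the age at which workers begin to forage. Of the marks, H3K4me3 is usually found at starts of active genes, H3K27ac at active starts and enhancers, H3K4me1 at enhancers, and H3K27me3 over genes silenced by Polycomb proteins. The tissue was a mixture of cell types, so a mark on more cells and a stronger mark on the same cells cannot be told apart.

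Positions are given in kb from the left end of For, that is the end with the lower coordinate. The gene table holds spans without strand, exons or start sites, so a gene end may be a start or an end of transcription, and whether a site lies in an exon, an intron or a UTR was not determined. The table lists 4 transcripts for For. A long noncoding RNA gene, LOC102655843, is nested within For at 53.48 to 55.49 kb. On the left, LOC408438 ends 9.17 kb and LOC725111 ends 1.92 kb before For. For itself ends at 79.87 kb. On the right, LOC724120 begins at 89.97 kb and runs out of the window.

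The number of ChIP tags that the peak caller kept was recovered from the deposited values, with an inferred fragment length, and is called depth. It ran from 4.20 M (mega, as in Mb) tags in a drone H3K4me3 library to 25.1 M in a queen H3K4me1 library, and in every mark both drone libraries had fewer recovered tags than all 4 female libraries. Recovered tags are not reads sequenced or mapped. The mapped-read totals that the study lists, not used here, come in another order, in which the drone H3K4me3 libraries are not the lowest, so values per M tags hold for the recovered number only. Peaks ended in every list at a −log10 q of 2.00 to 2.02. Absence of a peak is therefore absence of a call at that depth and not absence of the mark. Of the genes used to check the tissue, the neuronal genes Syt1, brp and Para and the glial transporter gene Eaat-2 had H3K4me3 and H3K27ac peaks shared by both replicates in all 3 castes. None of Mrjp1 to Mrjp3 (royal jelly proteins of the hypopharyngeal gland) and of Vg, Hex70a and Hex110 (fat body) had a shared H3K4me3 or H3K27ac peak in any caste. Of all placed genes, 34.4% in queens, 29.8% in workers and 24.1% in drones had a shared H3K4me3 peak. For H3K27ac the shares were 41.6%, 41.8% and 41.4%, so most placed genes had none and an absence says little about the tissue. Of the symbols searched, 7 of 10 neuronal, 3 of 4 glial and all 4 muscle ones had no match in the table.

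**Figure D1:**
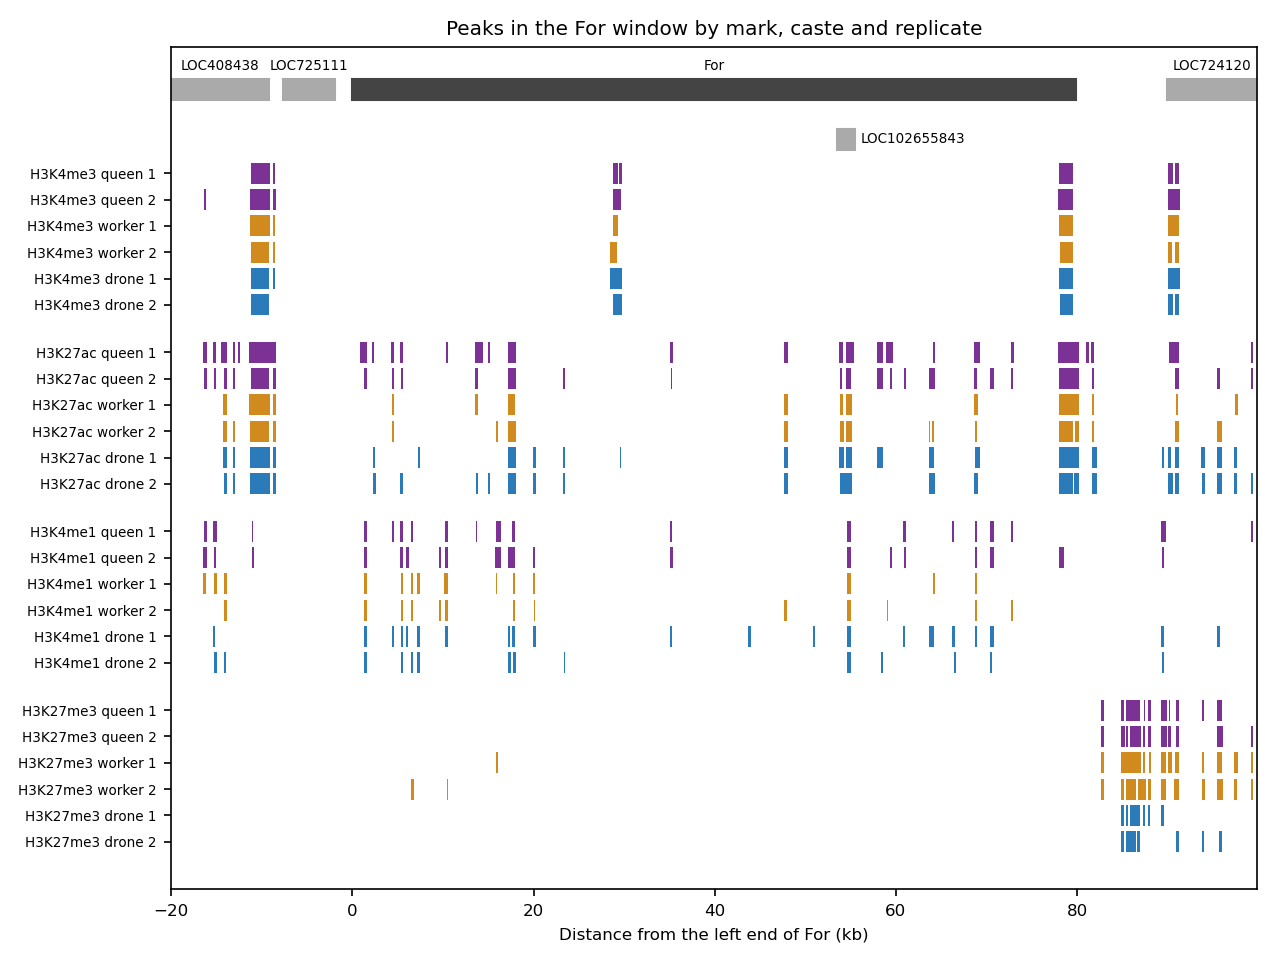
Peaks of the 24 lists over the For window (one line per library, coloured by caste) against distance from the left end of For in kb, with gene spans at the top. H3K4me3 stood at 4 places in all libraries, H3K27ac and H3K4me1 were scattered through the gene, and H3K27me3 lay almost wholly in the right flank.

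Within For, H3K4me3 stood at 2 places in all 6 libraries and at no other place. The first was just inside the right end, at 77.95 to 79.60 kb (10185854 to 10187497). The second lay deep inside the gene at 28.44 to 29.78 kb (10136338 to 10137678), 50.51 kb from the right end at its median summit. With each list cut to an equal number of peaks, this second site stayed in both drone lists and in no female list. That number, 3866, was the full length of the list of drone replicate 2, which therefore could not lose it. With summits thinned to the lowest depth of the mark, both queen libraries and worker replicate 2 also kept a peak there, and worker replicate 1 did not. At a minimum −log10 q of 5 every library kept one. The left end of For carried no H3K4me3, the nearest peak being 8.47 to 9.19 kb away at the end of LOC408438. The right end had one 0.278 to 0.343 kb away in every library. Across the window 6 merged sites were found, and 4 of them had a peak in all 6 libraries, against 21.3% of 14384 H3K4me3 sites over the genome. The others of these 4 were the right end of LOC408438 (−11.29 to −9.12 kb) and the left end of LOC724120 (89.99 to 91.33 kb). None of the 6 sites was limited to both libraries of 1 caste, a pattern that 10.2% of all H3K4me3 sites showed.

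The site by the right end was a strong peak in all castes. Its summit, the position of highest pileup, fell within 73 bp across the 6 libraries. The peak caller's fold, which is summit pileup plus 1 over local background plus 1, was 10.7 and 11 in queens, 5.75 and 5.65 in workers, and 18.7 and 13.1 in drones. The fold ranked at percentile 85.3 and 88.1 of the queen lists, 79.6 and 73.8 of the worker lists, and 84.7 and 80.6 of the drone lists, an order of queen, drone and worker with narrow gaps. Fold and height both depend on depth and on the background, so heights are also given as summit pileup per M tags. This height was 33.7 and 38.1 in queens, 24 and 23.7 in workers, and 58.9 and 42.7 in drones, so that the castes did not overlap, with drone highest and worker lowest. Over all 3062 H3K4me3 sites with a peak in every library, both drone libraries stood above all 4 female ones at 32.6%, with a median log2 ratio of drone over female of 0.43, against 0.76 here.

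The internal site stood out by its height in drones. At its summit 104 and 149 fragments were piled up in queens over a local background of 35.2 and 63.3, and in workers 121 and 88 over 63.6 and 45.3. In drones, 115 and 78 fragments stood over a background of 10.9 and 9.26. The fold was thus 2.90 and 2.33 in queens, 1.89 and 1.92 in workers, and 9.77 and 7.70 in drones. Per M tags the summit reached 7.66 in each queen library, 6.20 and 5.76 in workers, and 22.1 and 18.6 in drones. The drone mean was 20.3 ± 2.45 (SD, n = 2), against 7.66 ± 0.000707 in queens and 5.98 ± 0.311 in workers. The drone libraries were on average 2.98 times the mean of the 4 female libraries, and no female library reached a drone value. The exact permutation test over the 15 pairings of the 6 libraries gave p = 0.0667, the smallest p it allows. It was 1 of 17 sites of the window tested in this way, those with a peak in all 6 libraries of their mark. In this design no test between castes can pass 0.05.

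Because depth differs between libraries, the site was also placed within each library. By fold it ranked at percentile 32 and 24.8 of the queen lists, 11.6 and 7.53 of the worker lists, and 65.7 and 58.6 of the drone lists. The drone mean lay 43.1 percentile points above the female mean. Over the 3062 shared sites the median difference was −10.8 points, 2 sites including this one had a difference at least as high, and both drone libraries ranked above all 4 female ones at 4.38%. The log2 height ratio of drone over female was 1.58, and 12 of the 3062 sites (0.392%), this one included, had one at least as high. The remaining H3K4me3 sites of the window had differences of −1.23 points at LOC408438, 0.954 at the right end of For and −3.91 at LOC724120.

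**Figure D2:**
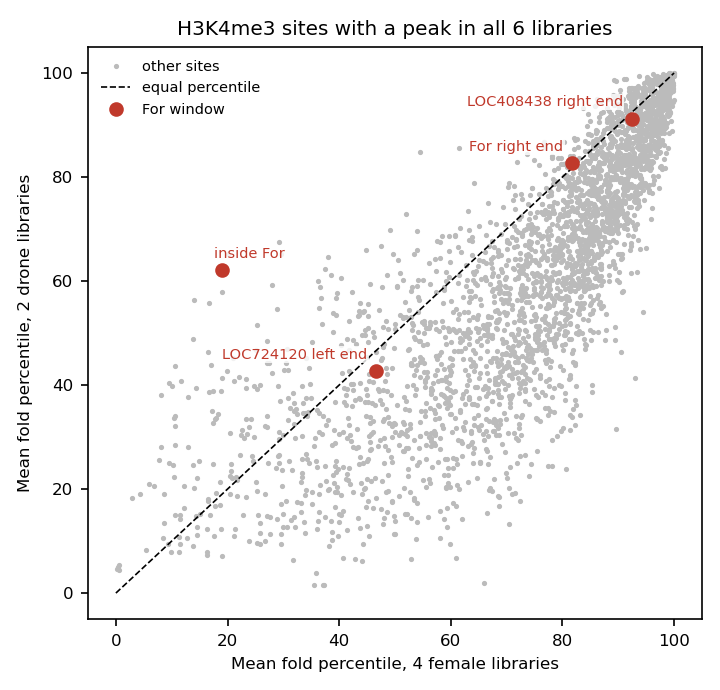
Mean percentile of the H3K4me3 fold within a library's list, over the 4 female libraries (horizontal axis) and the 2 drone libraries (vertical axis), for the 3062 sites with a peak in all 6 libraries. The internal site of For sits at 19.0 in the female and 62.1 in the drone libraries, far above the dashed line of equal percentile, and the other sites of the window lie within 4 points of it.

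The internal site was also set against the right-end site of the same library, as a ratio within 1 library. Its summit pileup was 22.7% and 20.1% of the pileup by the right end in queens, 25.9% and 24.3% in workers, and 37.5% and 43.6% in drones. Drone was again above all female libraries (40.5% ± 4.32 against 21.4% ± 1.86 and 25.1% ± 1.09, SD, n = 2, exact permutation p = 0.0667). Measured this way the drone mean was 1.74 times the female mean in place of 2.98 times. The local background at the internal summit was 3.15 and 3.2 times the genome-wide mean in the drone libraries and 3.74 to 4.44 times in the female ones, and its part in the result was not tested. The place of the summit within the site also varied. It was at 29.59 kb in both drone libraries and at 29.60 kb in queen replicate 1, but at 29.00 to 29.13 kb in the remaining 3. Queen replicate 1, whose summit fell at the drone position, still had 7.66 fragments per M tags there. Peak width was 1341 and 952 bp in drones, 458 and 782 bp in workers and 871 bp in queen replicate 2. In queen replicate 1 the site was split into 2 peaks, of 485 and 241 bp, that reached from 28.79 to 29.71 kb. The values given for that library are those of the taller peak, of 241 bp.

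**Figure D3:**
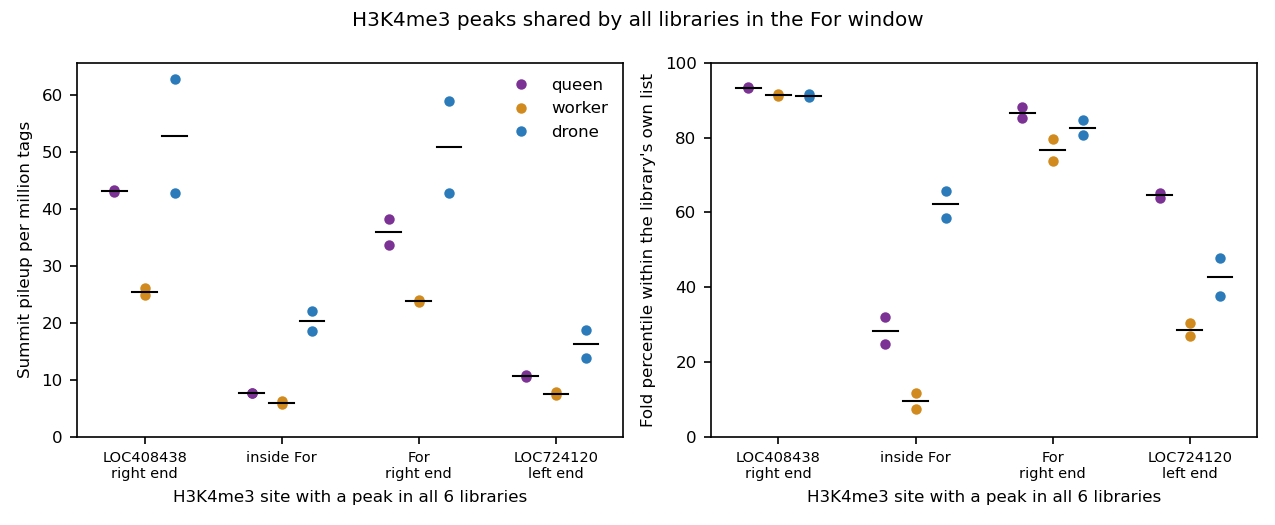
H3K4me3 at the 4 sites of the window with a peak in all 6 libraries, as summit pileup per M tags (left) and as percentile of the fold within the library's list (right). Points are libraries, bars are means of 2, and only at the internal site do the drone libraries stand above all 4 female ones on both scales.

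The internal H3K4me3 site was mostly without the other marks. No H3K4me1 or H3K27me3 peak met it in any library, and an H3K27ac peak did so only in drone replicate 1, at 29.49 to 29.69 kb. In the consensus of each caste, made of peaks that overlap a peak of the other replicate, it was H3K4me3 alone in all 3 castes. Such regions were 1.82% of all marked regions in queens, 1.14% in workers and 0.676% in drones. The right end, by contrast, carried H3K4me3 with H3K27ac in each caste.

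H3K27ac covered more of For in queens than in drones, and more in drones than in workers. Within the gene span it covered 13.4% and 9.95% in queens, 9.36% and 8.69% in drones, and 6.39% in each worker library. The castes did not overlap, with means of 11.7% ± 2.46, 9.02% ± 0.479 and 6.39% ± 0.00424 (SD, n = 2). The exact permutation p over 3 castes was 0.0667 and was 0.267 when adjusted over the 4 marks. Of 12255 genes, the queen libraries were both above the worker libraries at 9.23%, the drone libraries both below the queen libraries at 13.7% and the drone libraries both above the worker libraries at 10.1%. The worker H3K27ac libraries were the deepest of that mark in recovered tags (20.5 to 21.1 M). After thinning of every summit to the depth of the shallowest library the worker libraries held 4.82% and 4.84%, the queen libraries 11.7% and 9.35%, and the drone libraries kept their values, so that queen replicate 2 lay just below drone replicate 1. Drone and queen also overlapped when each list was taken down to the same number of peaks (queen 11.7% and 8.30%) and at a stricter −log10 q of 5 (queen 11.7% and 8.58%, drone 9.36% and 7.77%).

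Over the whole window the H3K27ac peaks numbered 28 and 27 in queens, 14 and 18 in workers, and 24 in each drone library. They covered 14.9% and 10.6% of it in queens, 7.79% and 7.96% in workers, and 11.7% and 11.3% in drones (exact permutation p = 0.200). Both queen and both drone libraries were above both worker libraries, which was so for 19.6% and 21.4% of all genes, while queen and drone overlapped.

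The H3K27ac peaks merged into 38 sites, of which 8 had a peak in all 6 libraries, or 21.1%, against 36% over the genome. In For these were the site over its right end (77.93 to 80.25 kb, reaching past the gene), and internal sites at 17.12, 53.75 and 68.66 kb. Queen libraries alone had 6 sites, at −16.46, −15.37, 0.82, 35.04, 58.93 and 72.66 kb. Drone libraries alone had 2, at 19.88 and 93.74 kb. Worker libraries alone had none. These 8 of 38 sites stand beside a genome-wide share of 9.64%. One site, at 4.28 to 4.6 kb, was found in all 4 female libraries and in no drone library, a pattern of 4.28% of all H3K27ac sites. The queen sites were weak. Their summits held 2.39 to 5.47 fragments per M tags, and the strongest by fold was that at 58.93 kb, with 5.09 and 6.04.

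The internal H3K27ac sites differed in how the castes were ordered. At 17.12 kb the summit reached 7.07 and 7.04 fragments per M tags in queens, 5.96 and 5.17 in workers, and 11.9 and 10.4 in drones. At 53.75 to 55.33 kb, over the nested LOC102655843, it reached 13.4 and 12.3 in queens, 10.7 and 9.27 in workers, and 17.8 and 14.5 in drones. At both, drone lay above queen and queen above worker in every library. At 68.66 kb the order by height was queen (12.9 and 11), drone (9.64 and 8.33), worker (7.90 and 6.49), again with no overlap between castes. By percentile of the fold within the list, drone stood above all 4 female libraries at 17.12 kb and overlapped them at 53.75 kb. At 68.66 kb drone was lowest by that rank (75.6 and 68.3, against 82.7 and 80.3 in workers and 82.9 and 84.3 in queens). There the summit fell within 14 bp in the 6 libraries. Each of these 3 sites had an exact permutation p of 0.0667 for height. Of the 17 sites, 10 had both drone libraries above all 4 female ones in height and none had both below. They were 3 of 4 for H3K4me3, 5 of 8 for H3K27ac (24.4% of shared sites over the genome), 2 of 4 for H3K4me1 (36.6%) and 0 of 1 for H3K27me3 (23.7%). The median log2 ratio of drone over female over all shared sites was itself above 0 in every mark (0.43 for H3K4me3, 0.093 for H3K27ac, 0.22 for H3K4me1 and 0.099 for H3K27me3).

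H3K4me1 marked 4 places inside For in all 6 libraries, at 1.24 to 1.63, 5.28 to 5.62, 17.14 to 18.02 and 54.56 to 55.06 kb. The first held the H3K4me1 peak closest to the left end of For in every library, 1.24 to 1.29 kb away. The last lies within the nested LOC102655843, of which H3K4me1 covered 22.5% and H3K27ac 55.0% on average over the 6 libraries of each mark. Those 4 were 11.4% of the 35 H3K4me1 sites of the window, against 4.58% over the genome. A single site, at −11.14 kb in the body of LOC408438, was found in both queen libraries alone, beside a genome-wide share of 16% for sites of 1 caste. Within For, H3K4me1 covered 5.98% and 6.89% in queens, 3.82% and 3.89% in workers, and 6.78% and 3.76% in drones. The spread between the drone replicates was nearly as wide as the whole range, and the exact permutation p was 0.467. Over the window, with the flanks included, queen (5.28% and 5.59%) was above worker (3.33% and 2.84%), as it was for 61.5% of genes. Drone (5.22% and 3.14%) was below queen, as for 39.3%. That gap was narrow (5.22% against 5.28%), and with summits thinned to equal depth drone (4.45% and 3.14%) and queen (3.79% and 4.08%) overlapped. The queen H3K4me1 libraries had the most recovered tags of that mark.

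H3K4me1 and H3K27ac shared more of their places in queens. Of the H3K27ac peaks in the window, 50.0% and 48.1% overlapped an H3K4me1 peak of the same replicate number in queens, 28.6% and 27.8% in workers, and 33.3% and 20.8% in drones. Both queen values lay above all others, and the replicate number pairs the lists of 2 marks by name only. The share of all H3K27ac peaks of a list with such an overlap was not determined. H3K4me1 covered 3.277% and 3.409% of the placed chromosomes in queens, 1.659% and 1.825% in workers, and 3.104% and 3.649% in drones. The part of these list sizes in the overlap was not tested. In the consensus of replicates, 8 regions of the queen window carried H3K27ac with H3K4me1 and no other mark, against 4 in workers and 2 in drones. This was 23.5%, 15.4% and 7.14% of the marked regions of the window, against 8.67%, 5.39% and 11.6% of all marked regions of the respective caste. In queens these included 0.82 to 1.63, 5.28, 17.16, 35.04, 54.47 and 68.66 kb within For. In drones they were the regions at 17.12 and 53.75 kb alone.

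H3K27me3 was nearly absent from For and dense to its right. In the gene no queen or drone library had a peak. Worker replicate 1 had 1 peak, at 15.83 kb, and worker replicate 2 had 2, at 6.44 and 10.40 kb, none of them shared by the replicates. No library had one in the left flank. In the right flank peaks began at 82.62 kb, and the nearest lay 2.75 to 5.03 kb from the end of For. Between For and LOC724120, the site at 84.82 to 87.56 kb had a peak in all 6 libraries, as the only one of 13 sites in the window (7.69%, against 30.7% over the genome). One site, at 82.62 kb, was seen in all 4 female libraries and in no drone library, which was so for 3.1% of sites. One site, at 97.34 kb in LOC724120, was seen in both worker libraries alone, against 8.9% of sites limited to 1 caste.

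In the 20 kb to the right, H3K27me3 and H3K27ac differed between drones and the female castes in opposite directions. H3K27me3 covered 23.6% and 23.7% there in queens, 29.3% and 28.1% in workers, and 12.6% and 13.3% in drones. H3K27ac covered 11.5% and 6.99% in queens, 5.90% and 7.28% in workers, and 16.8% and 17.03% in drones. Drone stood apart from all 4 female libraries in both marks, by −13.2 points in H3K27me3 and by 8.98 points in H3K27ac (exact permutation p over 3 castes 0.0667 and 0.133). Among the right flanks of 12255 genes, H3K27ac was higher in both drone libraries than in all 4 female ones at 5.79%, H3K27me3 was lower at 9.24%, and both held at 0.873% (107 genes). Neighbouring genes share flanks, so these genes are not separate cases. Every summit was also thinned to the lowest depth of its mark, and peaks that still passed kept the edges called at full depth. H3K27me3 then covered 12.6% and 13.3% of the flank in drones and 20.8% to 26.3% in the female libraries. H3K27ac covered 16.8% and 17.03% against 2.63% to 11.5%.

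The left end of LOC724120 carried H3K4me3 and H3K27ac in all castes. H3K27me3 lay on the same region in the consensus of queens and of workers and not in that of drones, where drone replicate 2 alone had a peak, at 90.9 to 91.25 kb. Regions with these 3 marks together made up 0.106% of all marked regions in queens, 0.125% in workers and 0.0704% in drones. Further into LOC724120, at 93.74 kb, H3K27ac was found in both drone libraries alone, and H3K27me3 at nearly the same place (93.76 kb) in both worker libraries, queen replicate 1 and drone replicate 2.

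Over the whole window H3K27me3 coverage did not overlap between castes. It was 3.93% and 3.95% in queens, 5.08% and 5.1% in workers, and 2.11% and 2.22% in drones (exact permutation p = 0.0667, adjusted over 4 marks 0.267). Queen below worker held for 19.9% of all genes, drone below queen for 20.9% and drone below worker for 26.1%. With summits thinned to equal depth, queen (3.47% and 3.74%) and worker (3.54% and 4.8%) overlapped, while drone stayed below both. H3K4me3 covered 4.70% and 5.45% in queens, 4.62% and 4.47% in workers, and 5.46% and 4.50% in drones of the window. Queen was above worker, as for 45.3% of genes, and drone overlapped both.

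**Figure D4:**
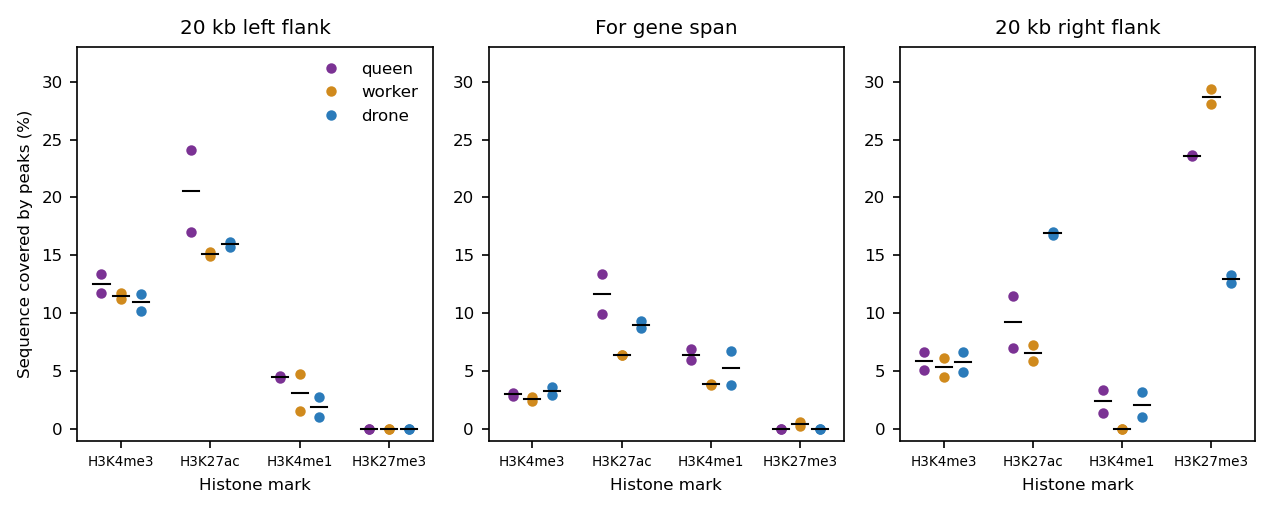
Percent of the left flank, the For span and the right flank covered by peaks of each mark. Points are the 2 libraries of a caste and bars their mean. The castes do not overlap for H3K27ac in the gene and in the left flank (queen, drone, worker from high to low in both). In the left flank drone (16.17% and 15.74%) and worker (15.26% and 14.93%) lay close. The share of all genes with that order in the left flank was not determined. The castes do not overlap for H3K27me3 in the right flank either (worker, queen, drone).

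Some stretches of the window were free of all marks in all 24 lists. The longest ran from −8.44 to 0.82 kb and holds all of LOC725111 and the left end of For. Within For the longest was 35.34 to 43.65 kb (8.31 kb). The sequence to both sides of the internal H3K4me3 site was also free, over 4.92 kb before it and 5.26 kb after it.

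For was set beside the 733 genes, itself included, of 0.5 to 2 times its length. H3K27ac covered 9.03% of For on average over the 6 libraries against a median of 4.38%, H3K4me3 2.96% against 1.39%, H3K4me1 5.18% against 3.14%, and H3K27me3 0.151% against 0.384%. For exceeded 65.8%, 79.8%, 77.5% and 43.4% of them, respectively. Its pattern over the 24 libraries was closest to that of LOC552017, a gene of 80.1 kb on linkage group 14, by the mean absolute difference in the percent of the gene covered (0.669 percentage points). It was followed by LOC100577188 (0.886), LOC410649 (0.890), LOC409468 (0.982) and LOC408697 (1.01), against a median of 3.73 over the 732 other genes.

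The genes that act before the kinase in cGMP signalling were looked up by symbol, and 4 were found. NOS encodes nitric oxide synthase, which makes the gas that activates soluble guanylate cyclase. Gycbeta1, sGC-alpha1 and sGCbeta-3 are by their symbols guanylate cyclase subunits, and whether each takes part in the answer to nitric oxide was not determined. All 4 had an H3K27ac peak shared by both replicates in each caste, as 41.6% of the 12255 placed genes had in queens, 41.8% in workers and 41.4% in drones. H3K4me3 was shared by the replicates on 3 of 4 in queens, on 3 in workers and on 1 in drones (sGC-alpha1), where For had its 2 sites in every caste. The share of all placed genes with such an H3K4me3 peak was 34.4% in queens, 29.8% in workers and 24.1% in drones. H3K4me3 covered 3.55% and 3.65% of NOS in queens, 4.06% and 3.41% in workers, and none of it in drones, whose H3K4me3 libraries had the fewest recovered tags of all. H3K4me1 was shared on 3, 3 and 1 of the 4 genes in queens, workers and drones, and H3K27me3 on 1, 2 and 2. Over all placed genes the shares were 29.3%, 20.1% and 24% for H3K4me1 and 11.9%, 12.4% and 9.9% for H3K27me3. Genes of different length are in these shares, and longer genes have more room for a peak. With 4 genes the counts are a description.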

How the data were processed

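Per the submitters' notes, reads were mapped with BWA 0.7.17 to Amel_HAv3.1, and the study's methods state that the authors called peaks with MACS2 in each library separately, with a genome size of 270000000 bp; the control and other settings are not given in the sources used here. The deposited lists hold peak positions, the fold ratio of the summit over local background, −log10 p and −log10 q, and the authors' summit offset. Summit pileup and background were recovered by solving the deposited fold and p (whole within 0.05 at 99.9% to 100% of peaks), and tags from the lowest background and the shortest peak, taken as the fragment length. Intervals of counting error were not used. Peaks of a mark overlapping by 1 bp were merged into sites. Castes were compared by two-sided exact permutation of libraries (15 pairings, smallest p 0.0667; 2 against 2, smallest p 0.333), with Benjamini-Hochberg adjustment. Alternatives were other flanks, stricter q, equal peak numbers, thinning (−log10 p of at least 4 kept), leaving out each library and a replicate block. Thinning drew each summit count a single time and kept or dropped whole peaks, so peaks could not narrow or split as they might at lower depth. Scripts (Python 3.11.15, SciPy 1.17.1) were tested on simulated data. For, the gene lists and the tests were chosen with earlier results of these data known. Genes named were For, genes of its window, the cGMP list and the 5 genes most alike. Sites named were those in all 6 libraries of a mark or in both libraries of 1 caste only. Others named were chosen after their values were seen. No sequence was used here.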

Additional observations from a re-analysis of the deposited data

How the results depend on the processing

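Of 358 alternative values, 305 kept their direction or lay within 1.5 times the count, 29 counts moved further and 24 differences changed sign. Drone H3K4me3 at the internal site of For stayed higher, and worker H3K27ac in the gene stayed lower, under every alternative run on them. The contrast of H3K27ac and H3K27me3 in the right flank also kept its direction. Some alternatives could not change a direction. A replicate block leaves a difference of means as it is, and leaving out 1 library cannot reverse groups that do not overlap. The stricter q, equal numbers of peaks and thinning were not run on the height or percentile of the internal site. The internal H3K4me3 ratio of drones over the female castes was 2.73 to 3.23 with 1 library left out, 4.78 after subtraction of the local background and 1.74 relative to the right-end site. The difference in fold percentile was 39.3 to 47.5 points with 1 library left out and 41.4 points when ranked among the 3062 shared sites alone, where 8 sites had a difference at least as high. These alternatives were chosen after the data were seen.

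Most differences that changed sign were of H3K4me3 and H3K4me1. Among them were queen minus worker for H3K4me1 (2.35 points in the window, 2.58 in the gene), drone minus worker for H3K4me1 (1.10 and 1.42) and drone minus queen for H3K27ac in the window (−1.26). Drone minus queen coverage of the window by H3K4me3 was −0.089 points. It became 0.11 with a minimum −log10 q of 5, 0.69 with equal numbers of peaks, 0.22 after thinning and 0.26 with a flank of 5 kb. For H3K27ac in the window it became 0.11 with equal numbers of peaks, and for H3K4me1 0.83 with a flank of 50 kb. For H3K4me1 in the gene it became 0.049 after thinning. Drone minus worker for H3K4me1 became −0.66 in the window and −0.41 in the gene with equal numbers of peaks. After division by the share of the placed chromosomes covered, the log2 ratio of queen over worker was −0.17 in the window and −0.14 in the gene for H3K4me3, and −0.13 and −0.20 for H3K4me1. The ratio of drone over queen in the window was 0.87 for H3K4me3 and 0.067 for H3K27ac, and that of drone over worker for H3K4me1 was −0.49 in the window and −0.46 in the gene. In these cases the cause was not tested.

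With 1 library left out, drone minus queen in the window ran from −0.57 to 0.39 points for H3K4me3 (above 0 without drone replicate 2 or queen replicate 2) and from −3.39 to 0.87 for H3K27ac (above 0 without queen replicate 1), and drone minus worker for H3K4me3 from −0.043 (without drone replicate 1) to 0.92. In the gene, drone minus queen ran from −0.021 (without drone replicate 1) to 0.61 for H3K4me3 and from −2.67 to 0.34 (without drone replicate 2) for H3K4me1, and drone minus worker for H3K4me1 from −0.090 (without drone replicate 1) to 2.93. The number of sites of 1 caste ran from 0 to 1 for H3K4me3, 8 to 13 for H3K27ac, 1 to 6 for H3K4me1 and 1 to 4 for H3K27me3, and that of H3K27me3 sites in all libraries from 1 to 3.

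The counts of sites in all 6 libraries moved as follows. H3K4me3 fell from 4 to 2 with equal numbers of peaks or a flank of 5 kb, H3K27ac from 8 to 5 with that flank, and H3K4me1 from 4 to 1 with the stricter q and to 2 with equal numbers of peaks or thinning. H3K27me3 rose from 1 to 12 with a flank of 50 kb. Of sites of 1 caste, H3K4me3 gained 1 with equal numbers of peaks. H3K27ac had 5 with a flank of 5 kb. H3K4me1 had 3 with the stricter q, equal numbers or thinning, 0 with 5 kb and 4 with 50 kb. H3K27me3 had 0 with 5 kb and 5 with 50 kb.

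Whether replicate numbers pair libraries of different castes is not settled by these data. Correlations of replicate differences over genes ran from −0.34 to 0.53 in 12 pairs of castes, and 5 lay above 0.1. The highest was that of queen and worker for H3K27ac. Taking the number as a replicate block leaves differences of caste means unchanged by construction (4.88 points of queen over worker for H3K27ac in the window). The exact permutation p of that pair was 0.333 without the block and 0.5 with it. The smallest possible p over 3 castes rose to 0.167 with the block. What recovered depth limits is the calling of weak peaks in each list.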

Other observations

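In the part of LOC724120 outside the window (51.8 kb), H3K27me3 covered 10.8% and 12.2% in queens, 20.2% and 18% in workers, and 6.03% and 4.63% in drones. H3K27ac covered 0% and 1.28% there in queens, 0.642% and 0.984% in workers, and 3.96% and 2.37% in drones, with 8 and 4 peaks in drones against 0 to 3 in the female libraries. H3K4me1 covered 3.22% and 5.75% in drones against 0.938% to 1.98% in the female libraries, and no library had an H3K4me3 peak. Over the whole gene of 61.7 kb, which includes its stretch in the window, H3K27me3 covered 11.3% and 12.5% in queens, 20.8% and 18.5% in workers, and 5.06% and 5.43% in drones. H3K27ac covered 2.25% and 2.48% in queens, 1.5% and 2.33% in workers, and 6.98% and 6% in drones, with 13 and 10 peaks in drones against 2 to 6 in the female libraries. H3K4me1 covered 3.28% and 4.83% in drones against 0.787% to 1.67% in the female libraries. H3K4me3 did not separate the castes, at 1.45% to 2.16% in the 6 libraries. These values were looked at after those of the flank were seen and are given with no test. The share of all genes at which drone stands apart from the female libraries in this way was not determined. Over the placed chromosomes H3K4me1 covered 3.104% and 3.649% in drones, 3.277% and 3.409% in queens, and 1.659% and 1.825% in workers.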
